A study of Homo sapiens with 38 samples.

Results

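The transcripts of 10 subunits of polycomb repressive complex 2 (PRC2) were followed in 3 established human breast cancer lines: EZH2, EZH1, EED, SUZ12, RBBP4, RBBP7, JARID2, AEBP2, MTF2 and PHF19. They were chosen by symbol, as the core and accessory subunits of the complex that the degraders and inhibitors are directed at. They make up 10 of the 24463 genes listed in at least 1 of 15 tables. All 10 were listed, and passed the filter on low values, in every table. T47D, T47D-TR and BT-549 cells received 2.5 uM MS177 (labelled a PROTAC, a molecule that brings about the breakdown of its target, here EZH2), 2.5 uM MS177-N1 or MS177-N2 (its negative controls), 2.5 uM C24 (an EZH2 inhibitor) or 0.125% DMSO, all for 48 h. T47D-TR cells also received 2.5 uM MS8815 (another EZH2 degrader), MS8815-N (its negative control), EPZ-6438 (an EZH2 inhibitor) or 0.05% DMSO for 30 h. Each line was grown with insulin and fetal bovine serum, and the labels do not spell out what TR stands for. The labels give 38 samples in 19 groups of 2, and do not say whether the 2 were separate cultures, so p-values measure the spread between these samples, which may be technical. Of MS177-N1 in T47D only 1 library could be used, because the other column of its table repeats MS177-N2 replicate 2 (equal reads at 100% of 17724 genes listed in both). That left 37 libraries.

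PRC2 places methyl groups on a lysine of histone H3 and so keeps developmental genes silent. EZH2, or its paralog EZH1, is the catalytic subunit, and works only when bound to SUZ12, the scaffold, and EED, which reads the methyl mark and stimulates the enzyme. RBBP4 and RBBP7 are histone-binding proteins that also serve in other chromatin complexes. PHF19 and MTF2 are paralogous Polycomb-like proteins that bring the complex to DNA, while JARID2 and AEBP2 define an alternative form of it. In cycling cells EZH2, EED and SUZ12 are known as targets of E2F factors. The degraders and inhibitors are directed at EZH2 protein, which was not measured here.

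Promoters are shown for 4 members that hold an E2F-type match and differed in their response to MS177 in T47D-TR. They are EZH2 (higher), SUZ12 and PHF19 (lower) and MTF2 (not called). Not shown are EED, RBBP4, RBBP7 and JARID2, called lower without a match, and the other starts of EZH2 and PHF19, which hold none. Each window is from RefSeq (GRCh38.p14), runs from 250 bases before to 20 bases after an annotated start, 5′ to 3′ along the gene, and has in capitals a match to 1 of the 8-base E2F-type motifs TTTGGCGC, TTTCCCGC, TTTGCCGC and TTTCGCGC on either strand. The EZH2 window lies at chr7:148884272-148884541 (minus strand), the SUZ12 window at chr17:31936757-31937026 (plus), the PHF19 window at chr9:120877169-120877438 (minus, its second start) and the MTF2 window at chr1:93079033-93079302 (plus).
EZH2: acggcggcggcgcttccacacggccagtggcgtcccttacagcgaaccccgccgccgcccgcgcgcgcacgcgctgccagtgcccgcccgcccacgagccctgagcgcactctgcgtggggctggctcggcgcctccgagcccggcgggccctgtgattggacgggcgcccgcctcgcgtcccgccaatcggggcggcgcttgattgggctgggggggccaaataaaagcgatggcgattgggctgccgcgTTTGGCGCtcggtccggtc
SUZ12: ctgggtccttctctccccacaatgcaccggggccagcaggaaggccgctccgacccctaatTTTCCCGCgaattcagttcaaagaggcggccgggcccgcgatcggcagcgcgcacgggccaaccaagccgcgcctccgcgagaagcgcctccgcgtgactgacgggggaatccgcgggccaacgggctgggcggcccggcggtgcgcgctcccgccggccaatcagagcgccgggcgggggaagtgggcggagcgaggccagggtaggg
PHF19: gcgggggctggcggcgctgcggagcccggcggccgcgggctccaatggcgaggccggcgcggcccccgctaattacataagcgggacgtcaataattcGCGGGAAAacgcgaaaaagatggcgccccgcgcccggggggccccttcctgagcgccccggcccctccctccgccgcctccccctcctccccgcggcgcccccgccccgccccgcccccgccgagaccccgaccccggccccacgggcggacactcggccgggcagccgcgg
MTF2: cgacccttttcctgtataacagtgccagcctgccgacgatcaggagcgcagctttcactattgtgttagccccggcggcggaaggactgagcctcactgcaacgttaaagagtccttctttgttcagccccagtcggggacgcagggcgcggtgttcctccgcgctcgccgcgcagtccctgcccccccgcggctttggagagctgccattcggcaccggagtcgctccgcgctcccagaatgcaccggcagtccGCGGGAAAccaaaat

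The match was TTTGGCGC at base 2 of the transcript for EZH2, TTTCCCGC at position -189 for SUZ12, GCGGGAAA (TTTCCCGC on the other strand) at position -152 for PHF19, and GCGGGAAA at base 6 for MTF2. AEBP2 and EZH1 held a match as well, so that 6 of the members' 15 windows had 1, each in another gene, beside 3.03% of all 35116 promoter windows of that length. The windows of EED, RBBP4, RBBP7 and JARID2 did not hold these letters. Members with a match were called higher (EZH2), called lower (SUZ12, PHF19) and not called (MTF2, AEBP2, EZH1) with MS177 in T47D-TR. A CCAAT box (CCAAT, either strand) was in 10 of the 15 windows, in 7 members, against 33.1% of all windows. The 2 windows of RBBP4 overlap, and 1 CCAAT match (position -54 in the first, -202 in the second) was counted in both.

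In GENCODE 29 (hg38) the catalytic genes and the reader of the mark are annotated as EZH2 at chr7:148807383-148884321 (minus), EZH1 at chr17:42700275-42745049 (minus) and EED at chr11:86244544-86278813 (plus). The scaffold and histone-binding genes are SUZ12 at chr17:31937018-32001045 (plus), RBBP4 at chr1:32651142-32686211 (plus) and RBBP7 at chrX:16839283-16870414 (minus). The accessory genes are PHF19 at chr9:120855652-120894896 (minus), MTF2 at chr1:93079235-93139081 (plus), JARID2 at chr6:15246296-15522040 (plus) and AEBP2 at chr12:19404045-19720801 (plus). Counts are per gene, over all of its exons.

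Depth was 32.1 to 49.9 M reads a library in T47D and BT-549, and is unknown in T47D-TR. Values are normalized counts within a table, and tests are limma on log2(normalized count + 1), two-sided, with Benjamini-Hochberg adjustment over all tested genes and a threshold of 0.05. A gene is said to be called when its adjusted p is below that. The labels of the lines were matched by markers in DMSO: the luminal gene ESR1 was at 150.4 and 117 CPM (counts scaled to the library total) in T47D, at 108.5 and 129.5 in T47D-TR, and at 0.0274 and 0.226 in BT-549. The mesenchymal gene VIM was at 2.84 and 2.92 CPM in T47D, 0.584 and 0.425 in T47D-TR, and 2108 and 2086 in BT-549. Some markers were less clear-cut. Luminal PGR was at 489.9 and 380.1 CPM in T47D but 21.94 and 21.28 in T47D-TR. BT-549 had luminal GATA3 at 169.1 and 162.3 and KRT18 at 525.5 and 495.4, below T47D (1023 and 979.6, 2376 and 2306). Replicate 2 of MS8815-N stood apart, with 44.3% of genes at 0 against at most 4.93% in any other library, and its correlation with replicate 1 across genes was 0.656. The replicates of MS177 in T47D (0.917), MS8815 (0.911) and EPZ-6438 (0.928) were also less alike than those of the other groups (0.962 or more).

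In DMSO the histone-binding RBBP7 had the highest level per length in all 3 lines, and the catalytic and accessory subunits were lower. Its place above RBBP4 depends on the lengths used, 2726 and 8026 bases. In mean CPM before that division RBBP4 was above RBBP7 in BT-549 (359.6 against 286.1) and T47D-TR at 48 h (228.5 against 188.2). It was below RBBP7 in T47D (130.0 against 392.8) and T47D-TR at 30 h (231.1 against 239.6). In CPM per kb of exon, RBBP7 was at 144.0 and 144.2 in T47D, at 68.8 and 69.3 in T47D-TR after 48 h, while BT-549 had 100.6 and 109.3. In T47D it was followed by SUZ12 (27.3 and 27.6), PHF19 (18.7 and 17.5), RBBP4 (16.3 and 16.1), EZH2 (14.2 and 13.7) and EED (13.0 and 14.2). EZH1, AEBP2, MTF2 and JARID2 lay between 4.29 and 7.03 there. EZH2 and EED were the only neighbours in the T47D order whose libraries overlapped.

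In BT-549, EZH2 was at 24.6 and 27.1 CPM per kb, after RBBP4 (42.8 and 46.8), PHF19 (34.4 and 34.6) and SUZ12 (27.8 and 33.6). EED (13.7 and 12.4) and MTF2 (10.9 and 11.4) came next. JARID2, AEBP2 and EZH1 lay between 3.84 and 5.48, and JARID2 and AEBP2 overlapped. In T47D-TR at 48 h, SUZ12 (30.7 and 30.5) and RBBP4 (27.7 and 29.2) followed RBBP7, and PHF19 was at 12.3 and 10.6. MTF2, AEBP2 and EZH2 (5.88 and 6.5) overlapped with one another, as did EZH1 and JARID2.

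EED was the lowest member in T47D-TR at 48 h, at 1.87 and 2.29 CPM per kb, beside means of 13.6 in T47D and 13.0 in BT-549. At 30 h it was at 2.81 and 1.79, and overlapped with JARID2 (2.13 and 2.15), the lowest there. EZH2 averaged 6.19 in T47D-TR, 13.9 in T47D and 25.8 in BT-549 at 48 h. These levels were set across tables that were normalized separately and were not tested. In T47D-TR each gene also carries a scale factor of its own that varied between tables with an SD of 0.0908 to 0.196 on the log2 scale, and it cannot be told apart from the gene's level.

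**Figure D1:**
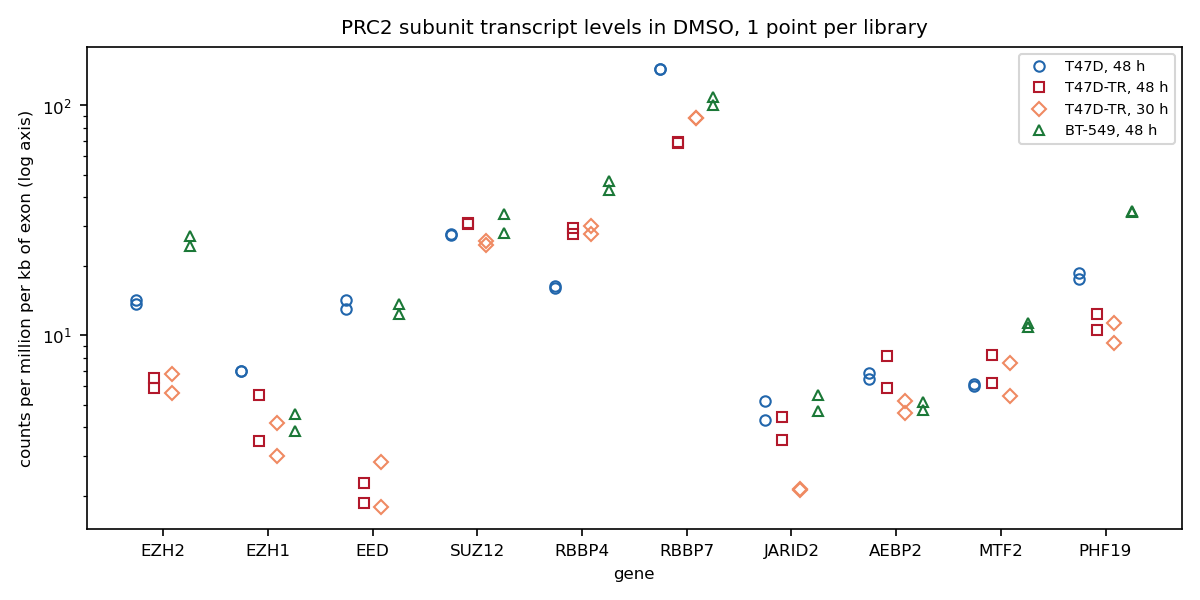
Level of each PRC2 subunit transcript in DMSO, in CPM per kb of exon on a log axis, with 1 point per library, 2 libraries per line and time. RBBP7 is the highest per kb in every line, and EED is near 2 in T47D-TR and near 13 in T47D and BT-549.

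Each compound, negative controls included, was compared with DMSO to ask whether the transcripts of PRC2 differed. Over 15 comparisons of 10 members, 8 of 150 pairs of member and compound were called, 7 of them with MS177 in T47D-TR and 1 with MS177-N1 in T47D-TR. Of all tested genes 54.6% were called with MS177 and 17.3% with MS177-N1 in T47D-TR. In 13 comparisons no member was called. They include MS177 and MS177-N2 in T47D, MS177-N1 in BT-549, EPZ-6438 and MS8815-N, where no gene at all was called. The lack of a call there does not set the members apart.

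**Figure D2:**
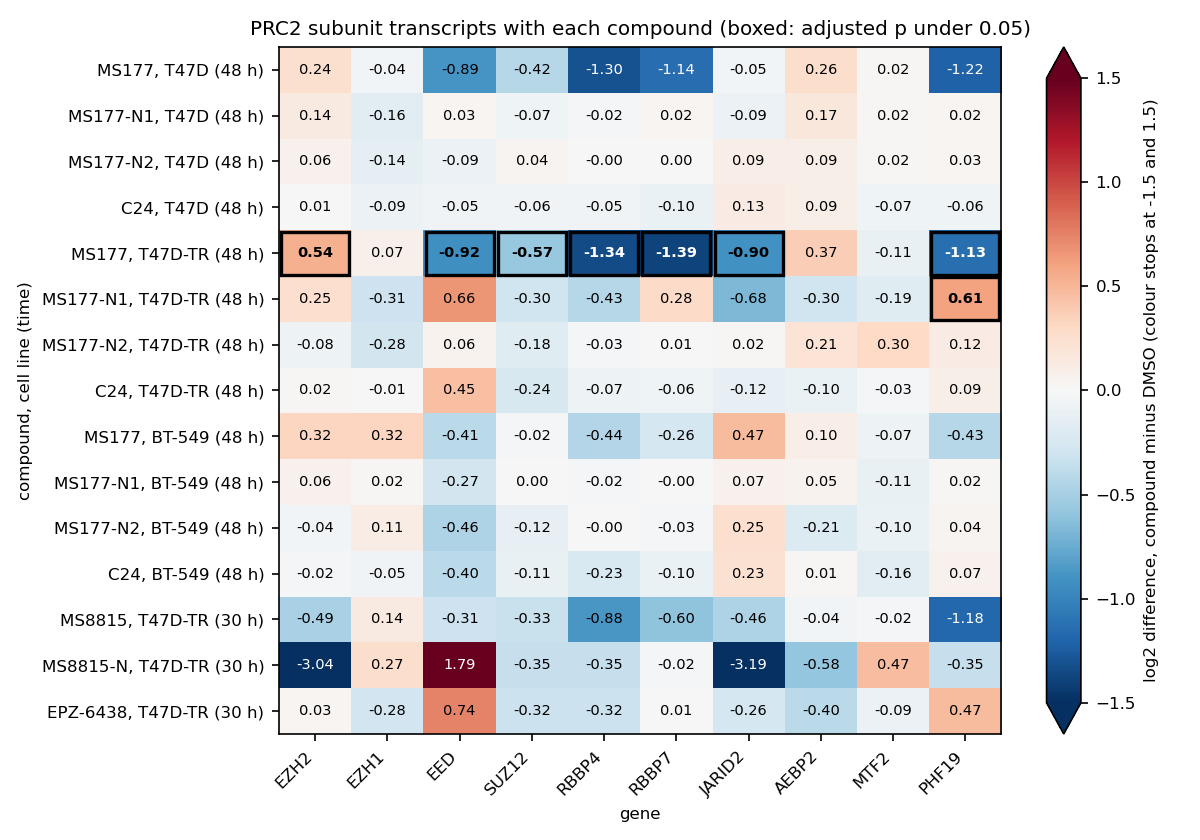
Log2 difference of each PRC2 subunit transcript between compound and DMSO (colour and printed value), with 1 row per compound and line and 2 libraries per group (1 for MS177-N1 in T47D). Boxes mark an adjusted p under 0.05 by limma. Of the 8 boxes 7 are in the row of MS177 in T47D-TR, where 54.6% of all tested genes were called. The values of -3.04, 1.79 and -3.19 with MS8815-N rest on its replicate 2.

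With MS177 in T47D-TR, EZH2 transcript was higher while EED, SUZ12, RBBP4, RBBP7, JARID2 and PHF19 were lower. The calls were 1 higher and 6 lower of 10 members, where 54.6% of the 14555 tested genes were called, 27.6% higher and 26.9% lower. The share of members called (7 of 10) was thus not far above that of all genes, and their median difference was -0.74 on the log2 scale beside -0.00 for all tested genes. No comparison with DMSO other than that of MS8815-N had a median over all genes beyond 0.03 in size.

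Among the core subunits, EZH2 was at 239 and 254.5 normalized counts in the DMSO libraries and 373 and 345 in the MS177 libraries of T47D-TR. Both MS177 libraries were above both DMSO libraries, and the mean was 1.45-fold higher (log2 difference 0.54 ± 0.15 SE, adjusted p = 0.0213 by limma). The call was lost without DMSO replicate 1 (adjusted p = 0.0601), MS177 replicate 1 (0.126) or MS177 replicate 2 (0.0705). EZH1, the paralog, was at 215 and 328 with DMSO and 294 and 266 with MS177, so that the groups overlapped (log2 0.07, 95% interval -0.47 to 0.62).

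EED fell from 90.1 and 106 to 43.8 and 59.9 normalized counts, 1.90-fold (log2 -0.92 ± 0.26, adjusted p = 0.0249). Its call was lost without DMSO replicate 2 (adjusted p = 0.105) or MS177 replicate 1 (0.105), and in a fit of all T47D-TR libraries (0.0501). On the deposited log2 scale EED did not pass the filter on low values. SUZ12, the scaffold, fell from 1835 and 1751 to 1210 and 1198, 1.49-fold (log2 -0.57 ± 0.10, adjusted p = 0.00438). Its pseudogene SUZ12P1, whose reads RSEM could share with it, was at 53.7 and 78.5 with DMSO and 75.5 and 59.4 with MS177.

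The histone-binding subunits fell the most and their replicates lay close together. RBBP4 went from 2957 and 2999 normalized counts to 1198 and 1151, 2.54-fold lower (log2 -1.34 ± 0.10, adjusted p = 0.000162). RBBP7 went from 2492 and 2416 to 940 and 933, 2.62-fold lower (log2 -1.39 ± 0.10, adjusted p = 0.000155). RBBP4P1, a pseudogene of RBBP4, was at 34.7 and 31.3 with DMSO and 15.5 and 7.21 with MS177.

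Of the accessory subunits, PHF19 fell from 781 and 642 to 292 and 358, 2.19-fold (log2 -1.13 ± 0.17, adjusted p = 0.00196). JARID2 fell from 275 and 333 to 183 and 142, 1.87-fold (log2 -0.90 ± 0.20, adjusted p = 0.00933). MTF2, the paralog of PHF19, was at 342 and 434 with DMSO and 373 and 341 with MS177, with overlapping groups (log2 -0.11, 95% interval -0.52 to 0.30). AEBP2 was at 461 and 610 with DMSO and 673 and 702 with MS177, apart but not called (log2 0.37, adjusted p = 0.0973).

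In T47D both MS177 libraries were below both DMSO libraries for EED, SUZ12, RBBP4, RBBP7 and PHF19. Such separation was not counted over all genes. In either direction it held in T47D for 6 members with MS177, 6 with the lone MS177-N1 library, 4 with MS177-N2 and 3 with C24. With MS177 in T47D no member was called. Neither was any other gene (0% of 17370, with 3163 at an unadjusted p under 0.05), and 3 members had an unadjusted p under 0.05. limma's voom on recovered reads called 0 members too. RBBP7 was at 13267 and 13465 normalized counts with DMSO and 5484 and 6672 with MS177 (log2 -1.14 ± 0.29, adjusted p = 0.179), and PHF19 at 3003 and 2855 against 1233 and 1290 (log2 -1.22 ± 0.25, adjusted p = 0.148). In both genes the MS177 libraries lay far below the DMSO libraries. EED was at 1594 and 1767 against 1001 and 818 (log2 -0.89 ± 0.27, adjusted p = 0.223).

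RBBP4 showed how unlike the MS177 libraries of T47D were: 4434 and 4414 with DMSO, but 1037 and 3100 with MS177 (log2 -1.30 ± 0.59, adjusted p = 0.333). EZH2 was at 1472 and 1432 against 1583 and 1856 (log2 0.24, 95% interval -0.46 to 0.93). For EZH1 (916.5 and 1266), JARID2 (731 and 1139), AEBP2 (1198 and 2104) and MTF2 (1054 and 713) the 2 MS177 libraries lay on opposite sides of the DMSO libraries. Leaving out 1 library gave log2 differences of -1.036 to -0.7452 for EED, -0.5688 to -0.2766 for SUZ12 and -2.091 to -0.5129 for RBBP4. The ranges were -1.285 to -1.002 for RBBP7 and -1.251 to -1.178 for PHF19. A fit of all T47D libraries called 3 (EED, RBBP7 and PHF19, lower).

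In BT-549 the differences with MS177 were smaller. No member was called, against 24% of 16336 tested genes, and voom called 0 as well. An unadjusted p under 0.05 was seen for 5 of 10 members, beside 6450 of the 16336 genes. The libraries of 9 members did not overlap, a share that was not counted over all genes. RBBP4 was at 13242 and 13808 with DMSO and 10599 and 9360 with MS177 (log2 -0.44 ± 0.12, adjusted p = 0.0554). PHF19 was at 6310 and 6057 against 4288 and 4935 (log2 -0.43 ± 0.12, adjusted p = 0.0583).

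EZH2 in BT-549 was at 2900 and 3051 with DMSO and 3799 and 3614 with MS177 (log2 0.32 ± 0.11, adjusted p = 0.0922). JARID2, lower with MS177 in T47D-TR, was at 1061 and 1185 with DMSO and 1724 and 1408 with MS177 in BT-549 (log2 0.47 ± 0.15, adjusted p = 0.0760). SUZ12 overlapped, at 4810 and 5547 against 5374 and 4840. Quantile scaling called RBBP4 and PHF19 lower, and a fit of all BT-549 libraries called both lower and EZH2 higher (adjusted p = 0.0168, 0.0178 and 0.0386). Leaving out 1 library gave log2 differences of -0.5307 to -0.3513 for RBBP4, -0.5276 to -0.3252 for PHF19 and 0.28 to 0.3535 for EZH2.

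**Figure D3:**
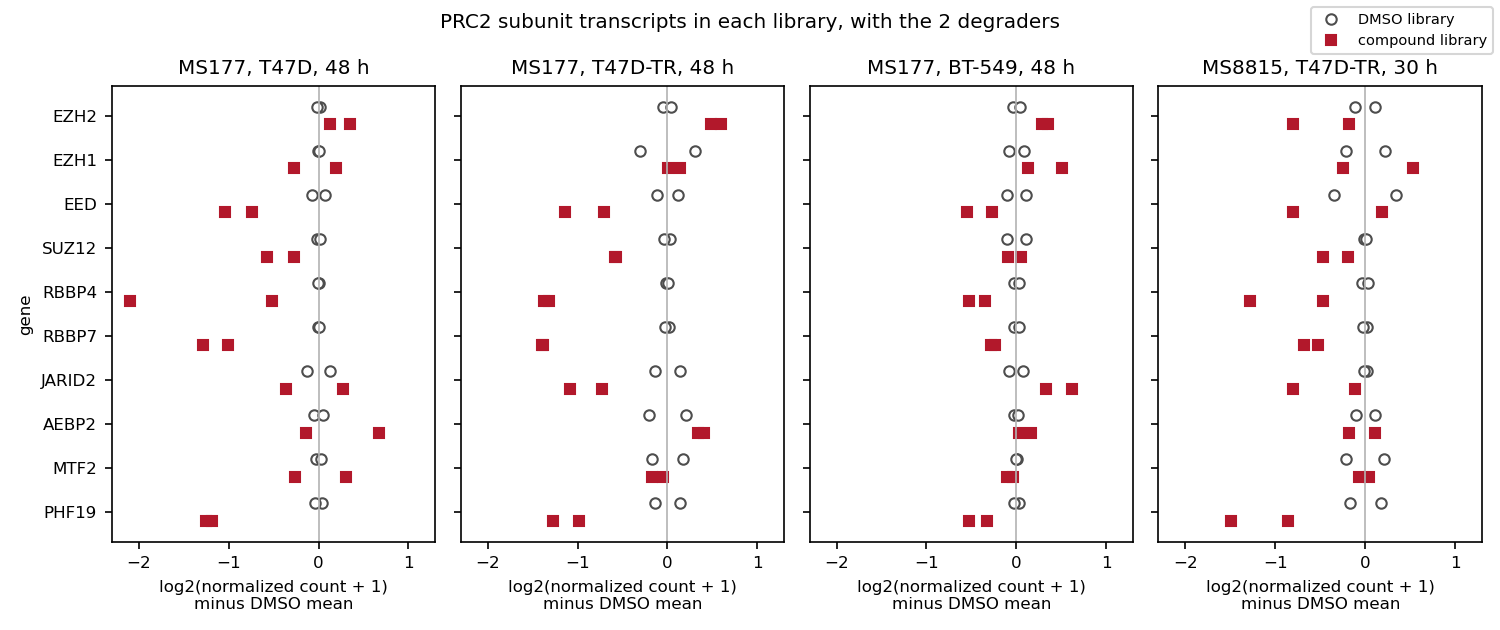
Each PRC2 subunit transcript in each library, as log2(normalized count + 1) minus the mean of the 2 DMSO libraries of its table, for MS177 in 3 lines (48 h) and MS8815 in T47D-TR (30 h). Open circles are DMSO libraries and filled squares are compound libraries. RBBP4, RBBP7 and PHF19 lie left of 0 in all 4 panels, while EZH2 lies right of 0 with MS177 and left of 0 with MS8815.

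The difference between lines in their response to MS177 was tested itself, over 3 pairs of lines. Between BT-549 and T47D-TR, 5 members differed, where 30.5% of 12887 genes did. The response was more positive in BT-549 for JARID2 by 1.38 ± 0.26 on the log2 scale (adjusted p = 0.00636), for RBBP7 by 1.13 ± 0.12 (0.000581), for RBBP4 by 0.90 ± 0.14 (0.00272), for PHF19 by 0.70 ± 0.21 (0.0395) and for SUZ12 by 0.56 ± 0.15 (0.0298). The EZH2 response differed by -0.22 (95% interval -0.58 to 0.14). No fit without 1 library kept all 5 calls: the count was 3 without BT-549 DMSO replicate 1, T47D-TR DMSO replicate 1 or T47D-TR MS177 replicate 1, and 4 without any of the other 5 libraries. SUZ12 lost its call in 6 of these 8 fits and PHF19 in 5, and both lost it with a replicate block (adjusted p = 0.151 and 0.141), while JARID2, RBBP4 and RBBP7 were called in each.

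Between T47D-TR and T47D no member differed (0.0289% of all genes did), and none had an unadjusted p under 0.05, with intervals as wide as -1.57 to 1.49 for RBBP4. Leaving out 1 library gave -1.177 to -0.5383 for JARID2 and -0.829 to 0.7496 for RBBP4. Between BT-549 and T47D no member differed (1.53% of all genes did), and 2 had an unadjusted p under 0.05, as had 2355 of 15506 genes. The 2 were RBBP7 (0.88, adjusted p = 0.150) and PHF19 (0.79, adjusted p = 0.156). Here leaving out 1 library gave 0.7433 to 1.026 for RBBP7 and 0.6872 to 0.8896 for PHF19.

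Next, MS177 was set against MS177-N1, MS177-N2 and C24 at the same dose and time, in 9 pairs. In T47D-TR, RBBP7, RBBP4, PHF19 and EED were lower with MS177 than with each of the 3 compounds. RBBP7 differed by -1.67 ± 0.13 from MS177-N1, -1.40 ± 0.13 from MS177-N2 and -1.33 ± 0.13 from C24 (adjusted p = 1.49e-05, 4.58e-05 and 5.62e-05). PHF19 differed by -1.74, -1.25 and -1.22 in the same order, and EED by -1.58, -0.98 and -1.37. EZH2 was higher with MS177 than with MS177-N2 (0.61, adjusted p = 0.00637) and C24 (0.52, adjusted p = 0.0140), and not called against MS177-N1 (0.28, 95% interval -0.03 to 0.60). The EZH2 call against MS177-N2 was lost without MS177-N2 replicate 1 (adjusted p = 0.0502). Against C24 it was lost without MS177 replicate 1 (0.0860) or C24 replicate 1 (0.0525), and with the compared libraries alone (0.0616).

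The number of members called in T47D-TR was 5 against MS177-N1 (50.7% of all genes), 7 against MS177-N2 (46.4%) and 8 against C24 (48.1%). SUZ12 (-0.27, adjusted p = 0.0524) and JARID2 (-0.23, 0.502), lower with MS177 than with DMSO, were not called against MS177-N1. AEBP2 was higher against MS177-N1 (0.67, adjusted p = 0.0060) and C24 (0.47, adjusted p = 0.032), and the latter call was lost without any 1 library (adjusted p from 0.0688 to 0.132) and with the compared libraries alone (0.0563). EED against MS177-N2 lost its call without MS177 replicate 1, MS177 replicate 2 or MS177-N2 replicate 2 (adjusted p = 0.195, 0.0593 and 0.227), and against C24 without MS177 replicate 1 or C24 replicate 2 (0.0633 and 0.0525). Leaving out 1 library gave 4 to 5 calls against MS177-N2 and 3 to 6 against C24. SUZ12 lost its call in all 4 of these fits against MS177-N2 and in 3 against C24, and JARID2 in 3 against each. RBBP4, RBBP7 and PHF19 kept their calls in each of those fits.

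In T47D the same 3 members, EED, RBBP7 and PHF19, were lower with MS177 than with MS177-N1 (1 library, 8.56% of all genes called), MS177-N2 (16.7%) and C24 (19.3%). PHF19 differed by -1.24, -1.24 and -1.15, RBBP7 by -1.17, -1.15 and -1.04 and EED by -0.92, -0.80 and -0.84. These fits share 1 estimate of the spread over the T47D libraries, so that the lone MS177-N1 library is assumed to vary like the rest, and with the compared libraries alone no member was called in any of the 3. With a replicate block EED and RBBP7 lost their calls against MS177-N1 (adjusted p = 0.111 and 0.0615), and EED against MS177-N2 (0.0565). The calls against MS177-N2 were lost without either of its libraries, and likewise those against C24. Leaving out 1 library gave -1.276 to -1.211 for PHF19, -1.287 to -1.004 for RBBP7 and -0.949 to -0.6586 for EED against MS177-N2. Against C24 the ranges were -1.198 to -1.11, -1.186 to -0.9035 and -0.986 to -0.6955 in the same order.

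In BT-549, PHF19 with MS177 lay below MS177-N1 (-0.44, adjusted p = 0.014), MS177-N2 (-0.47, 0.010) and C24 (-0.49, 0.0079). RBBP4 was lower against MS177-N1 (-0.42) and MS177-N2 (-0.44) but not called against C24 (-0.21, adjusted p = 0.18). EZH2 was higher against MS177-N2 (0.36, adjusted p = 0.020) and C24 (0.34, 0.026) and not called against MS177-N1 (0.25, 0.079). The counts were 2 (33.1% of all genes), 3 (37.2%) and 2 (35.7%). Leaving out 1 library brought them to 0 to 1, 1 to 2 and 0 to 2, and the PHF19 call was lost without MS177 replicate 1 in all 3 pairs (adjusted p = 0.0943, 0.0693 and 0.0593). The EZH2 calls did not hold without MS177 replicate 1 (0.0973 and 0.122) or MS177 replicate 2 (0.0668 and 0.0784).

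C24, the inhibitor, called no member in any line: 0.574% of all genes were called in T47D, 0.014% in T47D-TR and 0.165% in BT-549. One member, EED in BT-549, had an unadjusted p under 0.05 (2031 and 1758 with DMSO, 1322 and 1547 with C24, log2 -0.40, adjusted p = 0.396). Of all genes in BT-549, 1854 of 16358 had one. EZH2 differed from DMSO by 0.01, 0.02 and -0.02 in T47D, T47D-TR and BT-549. Intervals over the 10 members ran from -0.26 to 0.33 in T47D, from -0.73 to 0.58 in BT-549, and from -0.78 to 1.32 in T47D-TR. Voom called 0 members in T47D and BT-549.

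MS177-N2 called no member either (0% of all genes in T47D, where 951 had an unadjusted p under 0.05, 0.111% in T47D-TR and 2.12% in BT-549). Of the 10 members 1 had an unadjusted p under 0.05, in BT-549, where 3284 of 16105 genes had one. It was EED (1845 and 1596 with DMSO, 1233 and 1255 with MS177-N2, log2 -0.46, adjusted p = 0.116). EED was thus below DMSO in both libraries with MS177, MS177-N2 and C24 in BT-549, and also with MS177-N1 (1951 and 1690 with DMSO, 1633 and 1379 with MS177-N1), and these comparisons share their DMSO libraries. Voom called 0 members in T47D and BT-549.

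MS177-N1 differed from DMSO by -0.16 to 0.17 over the members in T47D (0.0651% of all genes called) and by -0.27 to 0.07 in BT-549 (0%, with 395 genes at an unadjusted p under 0.05), with no member at an unadjusted p under 0.05 and 0 called by voom. In T47D-TR it went with larger differences, where 17.3% of all genes were called. PHF19 rose from 554 and 451 to 730 and 796 normalized counts (log2 0.61 ± 0.17, adjusted p = 0.0363), the opposite direction to MS177. That call was lost without DMSO replicate 2 (adjusted p = 0.230), MS177-N1 replicate 1 (0.0591) or MS177-N1 replicate 2 (0.183), and in a fit of all T47D-TR libraries (0.0734).

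EED was at 76.8 and 89.8 with DMSO and 142.5 and 121 with MS177-N1 (log2 0.66, adjusted p = 0.0872), again opposite in sign to MS177. JARID2 was at 241.5 and 290 against 202.5 and 135 (log2 -0.68, adjusted p = 0.0767), and RBBP4 at 2779 and 2793 against 2336 and 1842 (log2 -0.43, adjusted p = 0.0841). The groups did not overlap for any of the 3, which was not counted over all genes either.

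MS8815, the other degrader, called no member in T47D-TR at 30 h, where 5.19% of 13456 genes were called. An unadjusted p under 0.05 was seen for 3 of 10 members, beside 3835 of the 13456 genes, so the members did not stand out. PHF19 was at 482 and 379 with DMSO and 235.5 and 151 with MS8815 (log2 -1.18 ± 0.31, adjusted p = 0.0942). RBBP4 was at 1980 and 2074 against 831 and 1460 (log2 -0.88 ± 0.33, adjusted p = 0.167), and RBBP7 at 2133 and 2073 against 1466 and 1314 (log2 -0.60 ± 0.20, adjusted p = 0.138). In all 3 both MS8815 libraries were below both DMSO libraries, a separation that was not counted over all genes.

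EZH2 was at 154 and 179.5 with DMSO and 94.8 and 147 with MS8815, lower in both libraries and not called (log2 -0.49, 95% interval -1.32 to 0.34). With MS177 at 48 h the same transcript was higher in T47D-TR; the times differ, and no comparison between the 2 degraders was made. EED (40.4 and 81.7 against 90.9 and 56.1 in DMSO), MTF2, AEBP2 and EZH1 overlapped with DMSO. Leaving out 1 library gave log2 differences of -1.285 to -0.4722 for RBBP4, -0.6777 to -0.5202 for RBBP7 and -1.492 to -0.8577 for PHF19.

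EPZ-6438 called no member (0% of 13548 genes, with 184 at an unadjusted p under 0.05), and none had an unadjusted p under 0.05. EZH2 was at 176.5 and 206.5 with DMSO and 187.5 and 202 with EPZ-6438, which overlap. Leaving out 1 library gave -0.5407 to -0.1061 for SUZ12, -0.6359 to 0.001864 for RBBP4 and -0.6765 to -0.1258 for AEBP2 (log2). It gave 0.3977 to 1.08 for EED and 0.07603 to 0.8683 for PHF19. MS8815 against EPZ-6438 called none (0.108% of all genes), with PHF19 at -1.65 ± 0.63 (adjusted p = 0.535) the 1 member with an unadjusted p under 0.05. Of all genes, 1156 of 13934 had one. None was called either when MS8815-N replicate 2 was kept out of the shared fit.

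For MS8815-N against DMSO no member was called (0% of 11534 genes, with 289 at an unadjusted p under 0.05), none had an unadjusted p under 0.05, and the values turn on 1 library. EZH2 was at 57.2 and 67.9 with DMSO, 58.5 in replicate 1 of MS8815-N and listed at 0 in replicate 2. JARID2 was at 41.7 and 41.4 with DMSO, 20.8 in replicate 1 and listed at 0 in replicate 2, while EED was at 29.4 and 18.5, 31.6 and 216.5. The median difference over all genes was -0.24 on the log2 scale with that library in, and -0.35 over the members. Without replicate 2 the differences were -0.09 for EZH2 and 0.42 for EED. MS8815 against MS8815-N called none (0.0574% of all genes), none had an unadjusted p under 0.05, and the EZH2 difference was 3.25 with replicate 2 of MS8815-N and -0.40 without it.

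Ratios of paralogs within a library do not depend on its depth. EZH2 over EZH1, per kb of exon, was 2.02 and 1.94 in T47D with DMSO and 2.62 and 2.22 with MS177, and 6.39 and 5.97 against 5.55 and 6.86 in BT-549. It was 1.69 and 1.18 against 1.92 and 1.96 in T47D-TR with MS177, and 1.89 and 1.63 against 1.19 and 1.08 with MS8815. The ratio was above DMSO with MS177 in T47D and T47D-TR, below it with MS8815 and overlapping in BT-549. A rise was not particular to MS177. In T47D both libraries of MS177-N2 (2.25 and 2.31) and C24 (2.18 and 2.07) and the lone MS177-N1 library (2.44) were above DMSO too. In T47D-TR so were MS177-N1 (2.02 and 2.38 against 1.78 and 1.24) and EPZ-6438 (2.31 and 2.32 against 2.01 and 1.73). C24, MS177-N2 and MS8815-N were not above it in both libraries there, nor was any compound in BT-549.

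PHF19 over MTF2 was lower with the degrader in both libraries in all 4 settings. The ratio was 3.11 and 2.85 with DMSO and 1.01 and 1.57 with MS177 in T47D, 1.98 and 1.28 against 0.678 and 0.910 in T47D-TR, and 3.17 and 3.05 against 2.32 and 2.54 in BT-549. With MS8815 it was 0.856 and 0.593, beside 2.09 and 1.22 in DMSO. These ratios were not tested, and in T47D-TR they carry the scale factor of each gene.

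**Figure D4:**
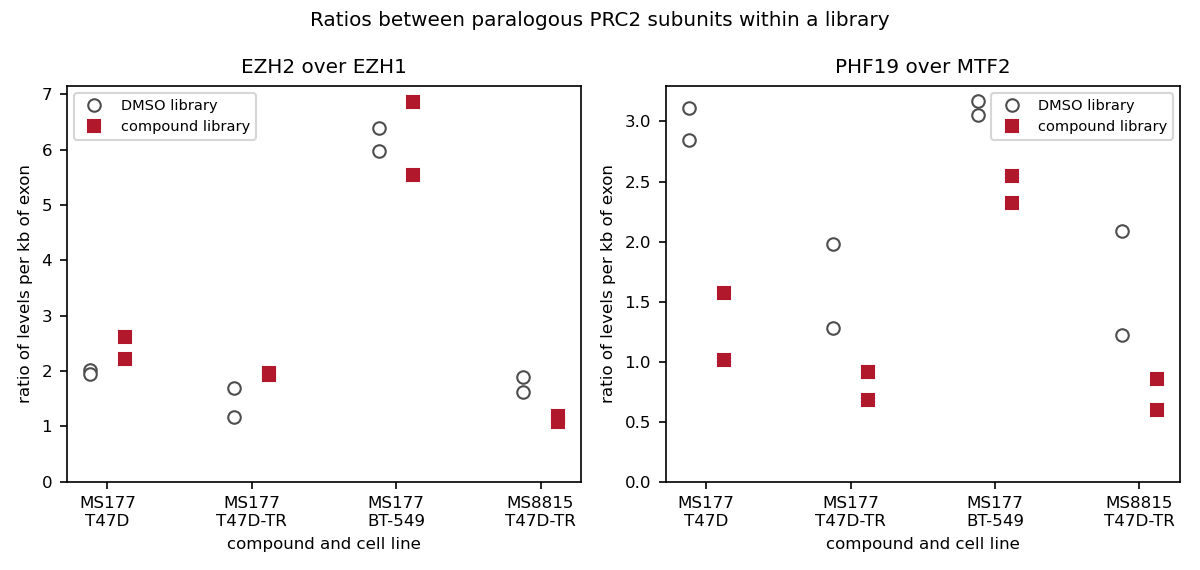
Ratio of EZH2 to EZH1 (left) and of PHF19 to MTF2 (right) within each library, per kb of exon, for MS177 in 3 lines and MS8815 in T47D-TR. Open circles are the 2 DMSO libraries and filled squares the 2 compound libraries of a table. PHF19 over MTF2 is below DMSO in both compound libraries of every setting.

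Of 5 other accessory genes of PRC2, PHF1, EPOP, LCOR, LCORL and EZHIP, 3 were tested with MS177 in T47D-TR and 2 were higher, where 27.6% of all genes were called higher. PHF1, the remaining Polycomb-like paralog, rose with MS177 from 180 and 159 to 790 and 877 normalized counts, 4.92-fold (log2 2.29 ± 0.15, adjusted p = 9.33e-05). Its difference was 1.31 in T47D (adjusted p = 0.150), -0.08 in BT-549 (0.616) and 1.84 with MS8815 (0.0636). LCOR, whose locus also encodes the PRC2 cofactor PALI1, rose with MS177 in T47D-TR from 751 and 717 to 1040 and 1472 (log2 0.75, adjusted p = 0.0121), and gene counts do not tell its products apart. LCORL was not called (log2 -0.12, adjusted p = 0.605). None of this list was called with MS177 in T47D or BT-549, or with MS8815, where 0%, 24% and 5.19% of all genes were.

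Among 23 genes of PRC1, the complex that binds the PRC2 mark, 8 were higher and 7 lower with MS177 in T47D-TR (median 0.16), where 54.6% of all genes were called. RING1 (log2 1.27) was among the higher ones, and CBX7 (-2.39) and PCGF5 (-1.03) were lower. In BT-549, PHC2 was higher (0.84) and CBX8 (-1.53) and CBX2 (-1.37) lower, the only 3 called, where 24% of all genes were. With MS8815 PCGF2 (-1.38) and BCOR (-1.33) were lower, where 5.19% of all genes were called. None was called with MS177 in T47D, nor was any other gene. Of 17 genes that oppose polycomb, 15 were tested in T47D-TR, with ARID1A (0.87) and KDM6B (0.84) higher and SMARCB1 (-0.63) lower. None of them was called with MS177 in T47D or BT-549, or with MS8815, beside 0%, 24% and 5.19% of all genes.

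RBBP4 and RBBP7 share other complexes with 22 listed partners, of which 6 were higher and 5 lower with MS177 in T47D-TR (median -0.30), beside the same 54.6% of all genes. The chromatin assembly factors CHAF1B and CHAF1A fell from 742 and 675 to 73.0 and 59.4, and from 901 and 880 to 120 and 144 (log2 -3.41 and -2.75), while LIN37 (1.33) and SIN3B (0.95) rose. In BT-549, LIN52 rose (0.75) and CHD3 (-0.81) and CHAF1B (-0.43) were among 3 that fell, where 24% of all genes were called. No partner was called with MS177 in T47D, where 0% of all genes were, or with MS8815, where 5.19% were.

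The median difference of 12 genes of proliferation was negative in the same comparisons. The sign alone does not set these apart. The median was also negative with C24, MS177-N1 and MS177-N2 in each line and with MS8815-N. There it lay between -0.22 (MS8815-N) and -0.004 (MS177-N1 in T47D). Only with EPZ-6438 was it positive (0.06). With MS177 in T47D-TR 11 were called lower (median -3.11), where 26.9% of all genes were. They were led by RRM2, which makes deoxynucleotides (5699 and 5735 to 211 and 243.5, log2 -4.65), and E2F2 (-4.58). In BT-549 6 were called lower (median -0.57), where 2053 of 16336 genes were, among them E2F2 (-1.41) and CCNA2 (-0.84). In T47D none was called (median -2.39), nor was any other gene. With MS8815 3 were called lower (median -1.18), where 293 of 13456 genes were, among them CCNA2 (-2.10) and RRM2 (-1.87). Their part in the values of the PRC2 members was not tested. In bulk libraries a change in the share of cycling cells and a change within each cell cannot be told apart.

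The genes whose pattern was most like that of EZH2 and EED were sought over all 37 libraries, as differences from the DMSO mean of their table and among 10258 genes. For EZH2 they were SPPL2B (Pearson r = 0.993), DCUN1D4 (0.991) and WDR20 (0.990), and for EED BTN3A2 (0.884), GPX8 (0.875) and MAEA (0.869). Without MS8815-N replicate 2 they became RRNAD1 (0.884), PEX10 (0.875) and MTG2 (0.874) for EZH2, and RHOA (0.863), SUMO2 (0.847) and ZNF695 (0.842) for EED. The first lists thus turn on that 1 library, in which EZH2 and JARID2 were listed at 0. Without it the r of JARID2 with EZH2 went from 0.915 to -0.156. Over the remaining 36 libraries the r with EED was 0.716 for PHF19, 0.673 for RBBP7 and 0.403 for RBBP4, 0.0820 for SUZ12 and -0.0260 for MTF2. It was -0.148 for EZH2, -0.267 for JARID2, -0.359 for EZH1 and -0.541 for AEBP2. Libraries of a line share their DMSO reference, and these are descriptions.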

How the data were processed

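RNA was sequenced from polyadenylated transcripts, per the labels. The submitters' processing notes name RSEM and DESeq, without versions, and hg38. The authors deposited log2 values in 15 tables of 1 compound beside its DMSO libraries, taken here as variance-stabilized counts. Their inverse gave normalized counts, and the ratio of the shared DMSO libraries then held between tables to within 3.75e-13 (log2). In T47D and BT-549 100% of values up to 1000 reads were whole reads within 0.05. In T47D-TR 8.17 to 16.3% were, so depth is unknown there.

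Comparisons used limma (version 3.58.1, R 4.3.3; trend, robust), pseudocount 1, on genes with at least 10 normalized counts in 2 or more libraries: each table alone against DMSO, and all libraries of a line and time, joined through DMSO, between compounds. Compound groups were taken from the labels. Members were always named. From each other list, up to 2 called rises and 2 falls with the largest differences were named for MS177 and MS8815, and the 3 genes of highest r with EZH2 and EED. One gene that this rule names is not reported here. Members and lists were chosen with earlier results of these data known. Gene lengths are merged exons of GENCODE 29. On simulated data the test was checked before use. Alternatives were other scales, filters, pseudocounts, scalings and fits, voom, and leaving out each library.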

Additional observations from a re-analysis of the deposited data

Results flagged for a closer look

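The MS177 response differed between BT-549 and T47D-TR, by a test of the difference itself, for 5 members, where 30.5% of all tested genes differed. On the log2 scale the response was higher in BT-549 by 1.378 for JARID2, 1.13 for RBBP7, 0.9008 for RBBP4, 0.7027 for PHF19 and 0.5551 for SUZ12. JARID2 had opposite signs in the 2 lines, and RBBP4, RBBP7 and PHF19 were below DMSO in both. SUZ12 and PHF19 lost their calls with a replicate block (adjusted p = 0.151 and 0.141), SUZ12 in 6 and PHF19 in 5 of the 8 fits without 1 library, and no such fit kept all 5. In BT-549 none of these members was called against DMSO.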

How the results depend on the processing

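With 2 libraries a group, leaving out 1 often moved the number of members called, and the lone library is then assumed to vary like the others of the fit. The counts in this section were not set beside the share of all genes called in the same fits, and are not read as traits of the members. Against DMSO these counts ran from 0 to 7 for MS177 in T47D, 0 to 3 for MS177 in BT-549, 0 to 1 for MS177-N1 in T47D-TR, 0 to 5 for MS8815, 0 to 7 for MS8815-N and 0 to 5 for EPZ-6438. Between compounds they were 7 to 8, 0 to 9 and 0 to 8 for MS177 in T47D against MS177-N1, MS177-N2 and C24 in turn, 4 to 5 and 3 to 6 against MS177-N2 and C24 in T47D-TR, 0 to 1, 1 to 2 and 0 to 2 in BT-549, and 0 to 3 for MS8815 against MS8815-N. For the response they were 0 to 2 (T47D-TR against T47D), 0 to 5 (BT-549 against T47D) and 3 to 4 (BT-549 against T47D-TR).

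Fitting all libraries of a line and time gave 3 calls for MS177 in T47D, 3 for MS177 in BT-549 and 0 for MS177-N1 in T47D-TR. Quantile scaling gave 2 for MS177 in BT-549 and 1 for MS177 against C24 there, and the deposited log2 values gave 2 for MS177-N1 in T47D-TR. The compared libraries alone gave 0 calls in the 3 T47D pairs and for MS177 against MS177-N1 in BT-549, 1 against MS177-N2 and 1 against C24 in BT-549, and 4 against C24 in T47D-TR. The cause was not tested.

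Replicate numbers were not taken to pair libraries: deviations of same-numbered libraries correlated from -0.753 to 0.769 in BT-549, -0.488 to 0.0614 in T47D and -0.609 to 0.479 in T47D-TR. A replicate block gave 1 call for MS177-N1 in BT-549 (0 without it), 0 for MS177-N1 in T47D-TR, 1 for MS177 against MS177-N1 in T47D, 1 for MS177 against C24 in BT-549 and 3 for the response of BT-549 against T47D-TR. Under the block the differences of JARID2 and AEBP2 for MS177 against MS177-N1 in T47D turned to -0.01545 and -0.003363. MS177-N1 in T47D has 1 library, so none could be left out there and no block was fitted for it against DMSO.

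Other reversals were of values near 0 or of groups that were unlike. For MS177 against DMSO in T47D, quantile scaling gave 0.004772 for JARID2, and leaving out 1 library gave -0.3656 to 0.2727 for JARID2, -0.1438 to 0.6683 for AEBP2 and -0.2599 to 0.3035 for MTF2. In T47D against MS177-N1 the ranges were -0.1137 to 0.3513 (EZH1), -0.2786 to 0.3597 (JARID2), -0.3141 to 0.498 (AEBP2) and -0.2798 to 0.2837 (MTF2). Against MS177-N2 they were -0.1372 to 0.3278, -0.4594 to 0.1788, -0.2367 to 0.5754 and -0.2781 to 0.2853, and against C24 -0.1864 to 0.2786, -0.4921 to 0.1462, -0.2326 to 0.5795 and -0.1924 to 0.371, for the same genes in that order. RBBP4 ran from -0.6359 to 0.001864 with EPZ-6438 and from -0.829 to 0.7496 in the response of T47D-TR against T47D. With MS8815-N, EZH1 ran from -0.1603 to 0.6915 and PHF19 from -1.263 to 0.5678, and EZH2 for MS8815 against MS8815-N from -0.3975 to 6.896. Of the counts under all alternatives, 209 stayed within 1.5 times the main count and 63 did not. Added after the data had been seen were the likeness without MS8815-N replicate 2, and fits without that library for EPZ-6438 and MS8815 against DMSO (all other libraries of the line and time in 1 fit) and for MS8815 against EPZ-6438. Each of these 3 fits gave 0 calls.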
